A study of Mus musculus with 6 samples.

Results

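Hmox1 and the peroxiredoxin genes Prdx1 to Prdx6 were followed in mouse kidneys after ischaemia-reperfusion injury (IRI), a temporary stop of blood flow followed by its return. The genes were taken by name from the deposited table, which lists 5 of the 7 names (Hmox1, Prdx1, Prdx2, Prdx5 and Prdx6) among 7340 genes. RNA was sequenced from 3 kidney samples with IRI and MK-8617 and from 3 kidney samples with IRI alone. MK-8617 blocks prolyl hydroxylases, the oxygen-dependent enzymes that target hypoxia-inducible factor (HIF) for destruction. All 6 samples carry the genotype label WT. The treatment entries of samples 2 and 3 with the inhibitor read MK8618 and MK8619, while their titles read MK8617, and the titles were followed. Strain, age, dose and route are not given in the sources used here, and time is given only as a 1d tag in the column names. Uninjured kidneys were not analysed here, and differences are set against injury alone. Whether the replicates were separate animals is not given in the labels, so the p-values cover only the spread among these libraries, part or all of which may be technical.

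Haem oxygenase 1, the product of Hmox1, opens the haem ring and releases biliverdin, carbon monoxide and iron. In injured kidney it is known as a stress-induced enzyme of tubular cells and macrophages. Its gene is classically induced through the transcription factor NRF2, is repressed by BACH1 and has also been described as a HIF target. Peroxiredoxins reduce hydrogen peroxide with a reactive cysteine, which thioredoxin restores in most of the family. Prdx1 and Prdx2 encode mainly cytosolic enzymes, and Prdx5 an enzyme of mitochondria, peroxisomes and cytosol. Prdx6 encodes a family member that relies on glutathione and also has a phospholipase activity.

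Library totals ran from 16835541 to 17577794 counted reads with MK-8617 and from 18620621 to 19508497 with IRI alone. The authors' table holds only genes whose own p was below 0.05 (largest 0.0499), so the 5 genes had been selected on the contrast before any test made here. Prdx3 and Prdx4, of mitochondria and endoplasmic reticulum, are not listed and were not tested, and no direction can be given for them. The kidney markers Umod, Slc12a1, Nphs1 and Atp6v1g3 were present in all 6 libraries, with 0 of the 4 at 0 reads. Slc12a1 of the thick ascending limb and Atp6v1g3 of intercalated cells were lower with MK-8617 (-1.7 and -1.26 on the log2 scale). Umod, the other marker of the thick ascending limb, overlapped between groups and did not pass the threshold, at 42948 ± 11592.4 normalised reads in the MK-8617 group and 31300 ± 8346.3 in the IRI group (0.46, adjusted p = 0.282 by limma). Nphs1 of podocytes was higher (0.42, adjusted p = 0.0183), a call lost after removal of the length trend (0.23, or 0.24 for the shortest principal transcript) and without MK-8617 replicate 1 (0.38). In whole-tissue RNA, fewer cells of a type and less RNA per cell cannot be told apart.

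Hmox1 was higher with MK-8617, while the 4 listed peroxiredoxin genes were all on the lower side. On the scale of the fit, Hmox1 was 1.91-fold of its IRI level, Prdx1 0.574-fold and Prdx2 0.597-fold. Of the 5 genes, Hmox1 rose, Prdx1, Prdx2 and Prdx6 fell, and Prdx5 did not pass the threshold (limma on log2(normalised read count + 1), Benjamini-Hochberg adjusted p below 0.05). Across the table, 74.3% of 6961 tested genes passed this threshold, 35.7% higher and 38.7% lower, so 4 of 5 is near the background. The groups did not overlap in 5 of 5 genes, against 92.5% of all tested genes (44.8% higher and 47.6% lower). In the authors' deposited table all 5 genes have an adjusted p below 0.05, as do 77.1% of the listed genes. Each library held at least 2131 reads of each of the 5 genes, so the filter on low values removed 0 of them.

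**Figure D1:**
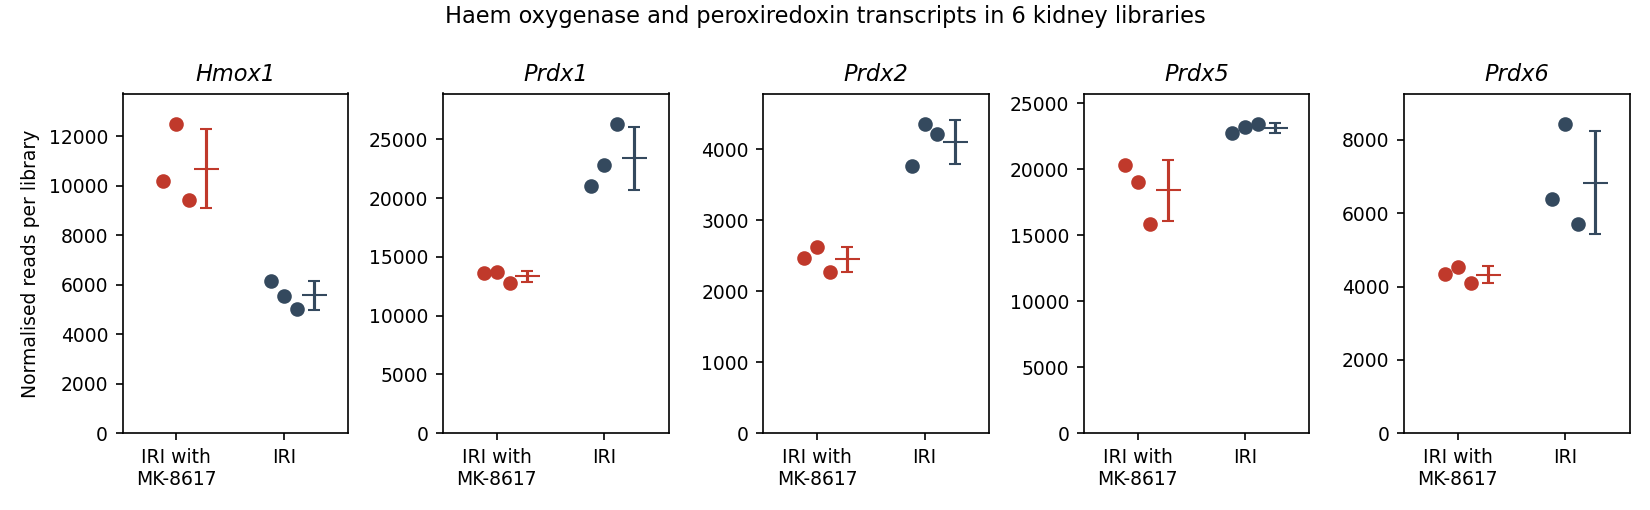
Normalised read counts (gene counts divided by the authors' size factor of the library) of the 5 genes in each library, with IRI and MK-8617 in red and IRI alone in dark blue. Points are libraries and the bar beside them is the mean ± SD (n = 3 per group). Hmox1 lies higher in the 3 MK-8617 libraries and the 4 peroxiredoxin genes lie lower, with no overlap between groups in any panel.

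Hmox1 (ENSMUSG00000005413, GRCm38 chromosome 8, 75093621 to 75100589, plus strand) had 10208, 12489 and 9416 normalised reads in MK-8617 replicates 1, 2 and 3, against 6161, 5532 and 5020 in IRI replicates 1, 2 and 3. The lowest MK-8617 library was 1.53 times the highest IRI library. MK-8617 replicate 2 was the highest library of all, and IRI replicate 3 the lowest. Mean levels were 10705 ± 1595.6 in the MK-8617 group and 5571 ± 571.7 in the IRI group (SD, n = 3 each). The log2 fold change was 0.94 ± 0.13 (SE), with a 95% interval of 0.63 to 1.24 and an adjusted p of 0.00148 by limma. A two-sided exact permutation test over the 6 libraries gave p = 0.1, the smallest that 3 against 3 allows. In the authors' deposited table the log2 fold change of Hmox1 is 0.94, with an adjusted p of 4.2e-09.

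Per length of gene model, Hmox1 stood at 323.7, 394.9 and 300.4 FPKM in the MK-8617 libraries and at 198.8, 177.8 and 160.6 FPKM in the IRI libraries. FPKM is the authors' read count scaled to gene length and library total. The mean of 339.7 ± 49.3 FPKM with MK-8617 exceeded that of 99.1% of the listed genes, and the mean of 179.1 ± 19.1 FPKM with IRI alone exceeded that of 97.3%. The ratio of the FPKM means was 1.9, close to the 1.92 of the normalised reads. An absolute change larger than that of Hmox1 was seen in 33.4% of the tested genes.

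Prdx1 (ENSMUSG00000028691, GRCm38 chromosome 4, 116685544 to 116700822, plus strand) had 13597, 13674 and 12818 normalised reads in MK-8617 replicates 1, 2 and 3, against 21013, 22845 and 26274 in IRI replicates 1, 2 and 3. The MK-8617 libraries lay close together, with a coefficient of variation of 3.54%, against 11.4% among the IRI libraries. Mean levels were 13363 ± 473.7 in the MK-8617 group and 23378 ± 2670.5 in the IRI group (SD, n = 3 each). The log2 fold change was -0.8 ± 0.12 (SE), with a 95% interval of -1.06 to -0.54 and an adjusted p of 0.0015 by limma (two-sided exact permutation p = 0.1). In the authors' deposited table Prdx1 has a log2 fold change of -0.81 and an adjusted p of 3.26e-09.

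The size of the Prdx1 difference depended on how a trend with transcript length was handled. Over 4 bins of principal transcript length with nearly equal numbers of genes, the median log2 fold change of all tested genes was -0.67 at 57 to 1538 nucleotides, -0.37 at 1539 to 2652, 0.35 at 2653 to 4211 and 0.4 at 4212 to 40378. Prdx1 has annotated principal transcripts of 877 and 2294 nucleotides, which fall in the shortest and the next bin. Once this length trend was taken out, Prdx1 was at -0.84 for the longer transcript and at -0.49 for the shorter one, and it passed the threshold in both cases. Prdx2, Prdx6 and Prdx5, at 1612, 2387 and 1262 nucleotides, also lie in these 2 bins; Hmox1, at 1569 nucleotides, moved against that trend and was at 1.03 without it. In FPKM, whose gene model for Prdx1 is 3043 bases long, the level was 244.1 ± 7.61 with MK-8617 and 432.1 ± 47.5 with IRI alone. RefSeq annotates a pseudogene, Prdx1-ps, and reads it shares with Prdx1 would make the count uncertain.

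Prdx2 (ENSMUSG00000005161, GRCm38 chromosome 8, 84969587 to 84974834, plus strand) had 2464, 2616 and 2266 normalised reads in the MK-8617 libraries, against 3756, 4347 and 4213 in the IRI libraries. Every MK-8617 library was below every IRI library. They averaged 2449 ± 175.5 in the MK-8617 group and 4105 ± 309.9 in the IRI group (SD, n = 3 each). The log2 fold change of Prdx2 was -0.74 ± 0.11 (SE), with an adjusted p of 0.00139 by limma, and it was -0.54 after removal of the length trend for its shorter principal transcript. Its exons share 173 bases with Junb and 177 bases with Rnaseh2a on the opposite strand, 5.7% and 5.8% of its exonic length. The library kit is not described in the labels as strand-specific, so reads there cannot be assigned to 1 gene, and RefSeq lists the copies Prdx2-ps1 and Prdx2-ps2.

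Prdx6 (ENSMUSG00000026701, GRCm38 chromosome 1, 161240112 to 161251219, minus strand) had 4341, 4544 and 4094 normalised reads with MK-8617, against 6377, 8423 and 5708 with IRI alone. IRI replicate 2 was well above the other 2 IRI libraries, and the IRI coefficient of variation was 20.7%. The log2 fold change of Prdx6 was -0.64 ± 0.15 (SE), with an adjusted p of 0.0113 by limma. Without IRI replicate 2 it was -0.48 (adjusted p = 0.0204), and without MK-8617 replicate 3 the call was lost, at -0.6 (adjusted p = 0.0538). RefSeq lists the further genes Prdx6b and Prdx6-ps2, so the count of Prdx6 is uncertain to the extent that reads are shared.

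Prdx5 (ENSMUSG00000024953, GRCm38 chromosome 19, 6906697 to 6910106, minus strand) had 20358, 19008 and 15854 normalised reads in MK-8617 replicates 1, 2 and 3, against 22728, 23236 and 23400 in IRI replicates 1, 2 and 3. The groups did not overlap, but the lowest IRI library was only 1.12 times the highest MK-8617 library. The log2 fold change of Prdx5 was -0.34 ± 0.12 (SE), with a 95% interval of -0.61 to -0.07, an unadjusted p of 0.02 and an adjusted p of 0.0658 by limma. DESeq2, run on whole reads recovered from the table, did call it (-0.33, adjusted p = 0.0279), and in the authors' deposited table its adjusted p is 0.0369. After removal of trends on length and GC content it was at -0.05. Exons of Prdx5 share 409 bases, 19.1% of its exonic length, with Trmt112 on the opposite strand, so its reads are uncertain as well.

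Promoter windows from RefSeq (GRCm38.p6), reaching from 250 bases before to 50 bases after the start site, were found for 3 of the 5 genes. They are shown because Prdx1 and Prdx2 both fell, with Prdx5, which did not pass the threshold, beside them, and because an antioxidant response element, the binding site of NRF2, is a short motif that can be searched for. The core TGACNNNGC was searched on both strands, and capitals mark its matches. The windows are chr4:116685349-116685648 on the plus strand for Prdx1, chr8:84969372-84969671 on the plus strand for Prdx2 and chr19:6910057-6910356 on the minus strand for Prdx5, each written 5′ to 3′ along the gene.
Prdx1: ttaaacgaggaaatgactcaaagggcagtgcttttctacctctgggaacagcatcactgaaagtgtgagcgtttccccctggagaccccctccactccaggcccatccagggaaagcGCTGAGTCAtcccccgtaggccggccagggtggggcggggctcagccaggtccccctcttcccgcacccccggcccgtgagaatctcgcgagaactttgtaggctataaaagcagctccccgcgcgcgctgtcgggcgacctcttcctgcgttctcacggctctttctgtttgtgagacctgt
Prdx2: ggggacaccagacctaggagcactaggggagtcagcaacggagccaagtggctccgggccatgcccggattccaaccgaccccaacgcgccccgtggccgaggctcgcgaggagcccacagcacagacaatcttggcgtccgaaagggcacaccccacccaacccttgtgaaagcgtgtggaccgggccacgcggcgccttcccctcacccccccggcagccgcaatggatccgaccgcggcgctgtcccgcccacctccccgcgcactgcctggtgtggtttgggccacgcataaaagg
Prdx5: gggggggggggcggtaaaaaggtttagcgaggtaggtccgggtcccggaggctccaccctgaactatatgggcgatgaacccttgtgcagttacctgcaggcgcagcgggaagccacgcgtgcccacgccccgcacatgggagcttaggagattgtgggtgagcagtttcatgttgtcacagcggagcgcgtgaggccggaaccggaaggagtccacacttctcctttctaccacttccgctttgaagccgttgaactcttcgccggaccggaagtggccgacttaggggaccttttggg
The Prdx1 window held 1 match on the strand opposite to the gene, beginning at position -133 from the start site, and the windows of Prdx2 and Prdx5 held 0. The same core lay in 12.4% of all 32851 promoter windows of the same length. ACGTG, 1 form of the hypoxia response element core, was searched on both strands. It had 0 matches in the 3 windows and lay in 19.6% of all windows. Other forms of that core, such as GCGTG, were not searched for, so the 0 covers ACGTG only. The motifs searched cannot overlap in the windows shown. A match is a run of letters only.

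Hmox1 and Prdx1 changed places in the order of levels per length. With MK-8617 the order by mean FPKM was Prdx5 (478.2 ± 58.5), Hmox1, Prdx1, Prdx6 (50.1 ± 2.39) and Prdx2 (44.6 ± 3). With IRI alone it was Prdx5 (608.2 ± 6.8), Prdx1, Hmox1, Prdx6 (80.1 ± 16.6) and Prdx2 (75.7 ± 5.5). Prdx6 and Prdx2, neighbours at the low end, did not differ beyond their spread in the IRI libraries, where their values overlapped.

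Ratios taken within a library do not depend on its size factor. Hmox1 over Prdx1 was 1.3, 1.59 and 1.28 in FPKM in MK-8617 replicates 1, 2 and 3, against 0.51, 0.421 and 0.332 in IRI replicates 1, 2 and 3. On the log2 scale this ratio averaged 0.47 ± 0.17 with MK-8617 and -1.27 ± 0.31 with IRI alone, a difference of 1.74. Hmox1 over Prdx5 differed least among the 4 Hmox1 ratios, by 1.27. Of the 10 pairs among the 5 genes, 6 had ratios that did not overlap between groups, and each of these had a two-sided exact permutation p of 0.1 (0.167 adjusted over the 10 pairs). The 4 Hmox1 pairs had to separate, since Hmox1 was higher and each peroxiredoxin gene lower with MK-8617 without overlap. The share over all pairs of tested genes was not taken.

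Prdx1 and Prdx2 kept close to one ratio in all 6 libraries, with a mean log2 ratio of 2.45 ± 0.06 with MK-8617 and 2.51 ± 0.12 with IRI alone. Prdx1 over Prdx5 was lower with MK-8617, at -0.96 ± 0.14 against -0.5 ± 0.14 with IRI alone, and so was Prdx2 over Prdx5, at -3.42 ± 0.13 against -3.01 ± 0.09. The summed FPKM of the 4 peroxiredoxin genes was 871.6, 840.7 and 738.4 with MK-8617, against 1135.2, 1212.7 and 1240.6 with IRI alone. The mean sum with MK-8617 was 0.683 of that with IRI alone, and the groups did not overlap (two-sided exact permutation p = 0.1). Each of the 4 genes was already lower without overlap, as were 47.6% of all tested genes.

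**Figure D2:**
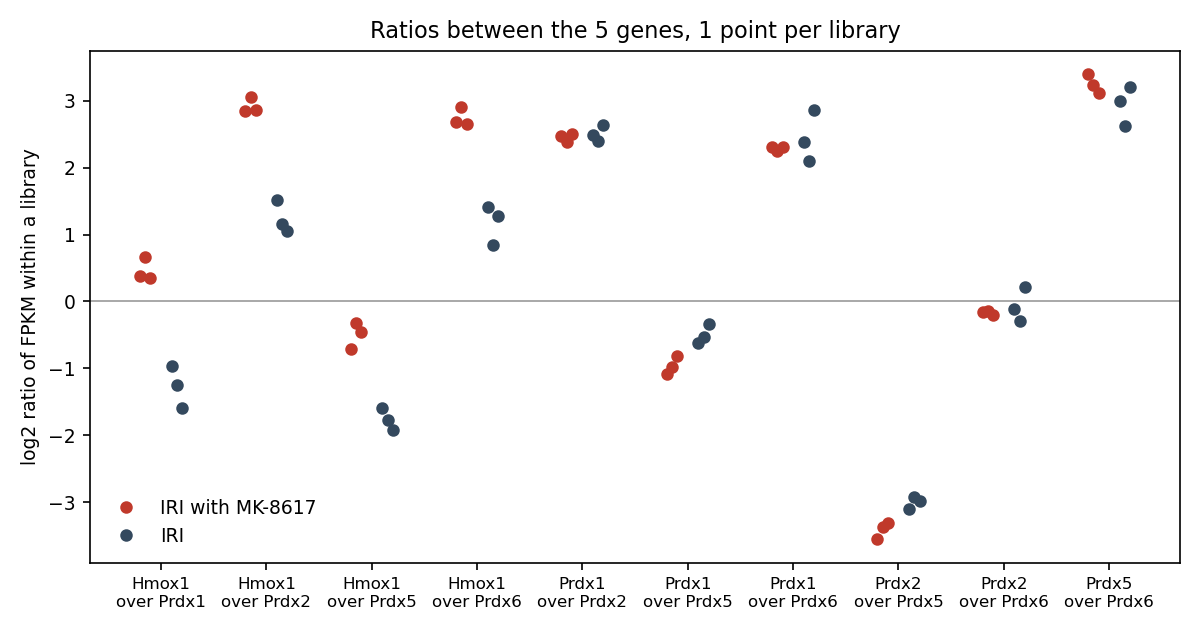
Log2 ratio of the FPKM values of each pair of the 5 genes within a library, with IRI and MK-8617 in red to the left of IRI alone in dark blue, 1 point per library. The 4 ratios with Hmox1 on top lie higher with MK-8617 without overlap, while Prdx1 over Prdx2 overlaps between the groups.

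Of 29 genes in the list for haem and iron handling 13 were listed and tested, with 5 higher, 4 lower and 4 not called. Over all genes tested 35.7% were higher and 38.7% lower, so these counts are near the background. The list median was 0.38 (0.31 without Hmox1), against -0.31 over all genes tested. Alas1, the first enzyme of haem synthesis in most tissues, rose to 6746 ± 316.3 normalised reads with MK-8617, against 3372 ± 494.1 with IRI alone (log2 fold change 1.01 ± 0.13). Other listed genes of haem breakdown moved opposite to Hmox1. Hmox2, the constitutive haem oxygenase, had 545.7 ± 4.44 normalised reads with MK-8617 against 813.1 ± 35.2 with IRI alone (-0.57 ± 0.1). Blvrb, a biliverdin reductase, had 722.8 ± 77.8 with MK-8617 against 1384 ± 222.9 with IRI alone (-0.93 ± 0.14). Blvra, the other biliverdin reductase gene, is not listed and was not tested.

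Genes of iron handling and haem transport were also listed. Fth1, the ferritin heavy chain, rose by 0.48 ± 0.1 on the log2 scale, and Ncoa4, the receptor for ferritin breakdown, by 0.45 ± 0.13 (adjusted p = 0.0311 by limma). Ireb2, an iron-regulated RNA-binding protein, rose by 0.55 ± 0.09 but was at 0.11 after removal of trends on length and GC content. Steap3, an iron reductase, and Slc48a1, a haem transporter, had log2 fold changes of -0.97 ± 0.16 and -0.5 ± 0.1 and fell. The iron exporter gene Slc40a1 did not pass the threshold (0.38 ± 0.13, adjusted p = 0.0534 by limma), and its groups overlapped. The number of higher members was 8 with TMM, with DESeq2 or with adjustment over the listed genes only, and 3 after removal of trends on length and GC content.

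Of the 22 genes of the peroxiredoxin and thioredoxin system 14 were listed and tested, with 2 higher, 8 lower and 4 not called, and a median of -0.52. The 10 called of 14 are near the 74.3% over all genes tested (35.7% higher and 38.7% lower). Without the peroxiredoxins the counts were 2 higher and 5 lower of 10, with a median of -0.39, near the -0.31 of all genes tested. Txn1, cytosolic thioredoxin, stood at 7648 ± 660.8 normalised reads in the MK-8617 group and 11091 ± 730.9 in the IRI group (-0.54 ± 0.11), and it missed the threshold after removal of the length trend (-0.24). Txn2, its mitochondrial counterpart, fell with a log2 fold change of -0.73 ± 0.11, and Glrx3, a glutaredoxin, with -0.6 ± 0.1. Glrx, the cytosolic glutaredoxin, rose, with 3300 ± 210.5 normalised reads with MK-8617 against 834.3 ± 164.5 with IRI alone (2 ± 0.14, adjusted p = 6.49e-05 by limma). Sesn2, a stress-induced sestrin, rose by 0.77 ± 0.17. Txnrd1, the cytosolic thioredoxin reductase, and Txnip, a thioredoxin inhibitor, were at 0.28 and 0.35 and did not pass the threshold.

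**Figure D3:**
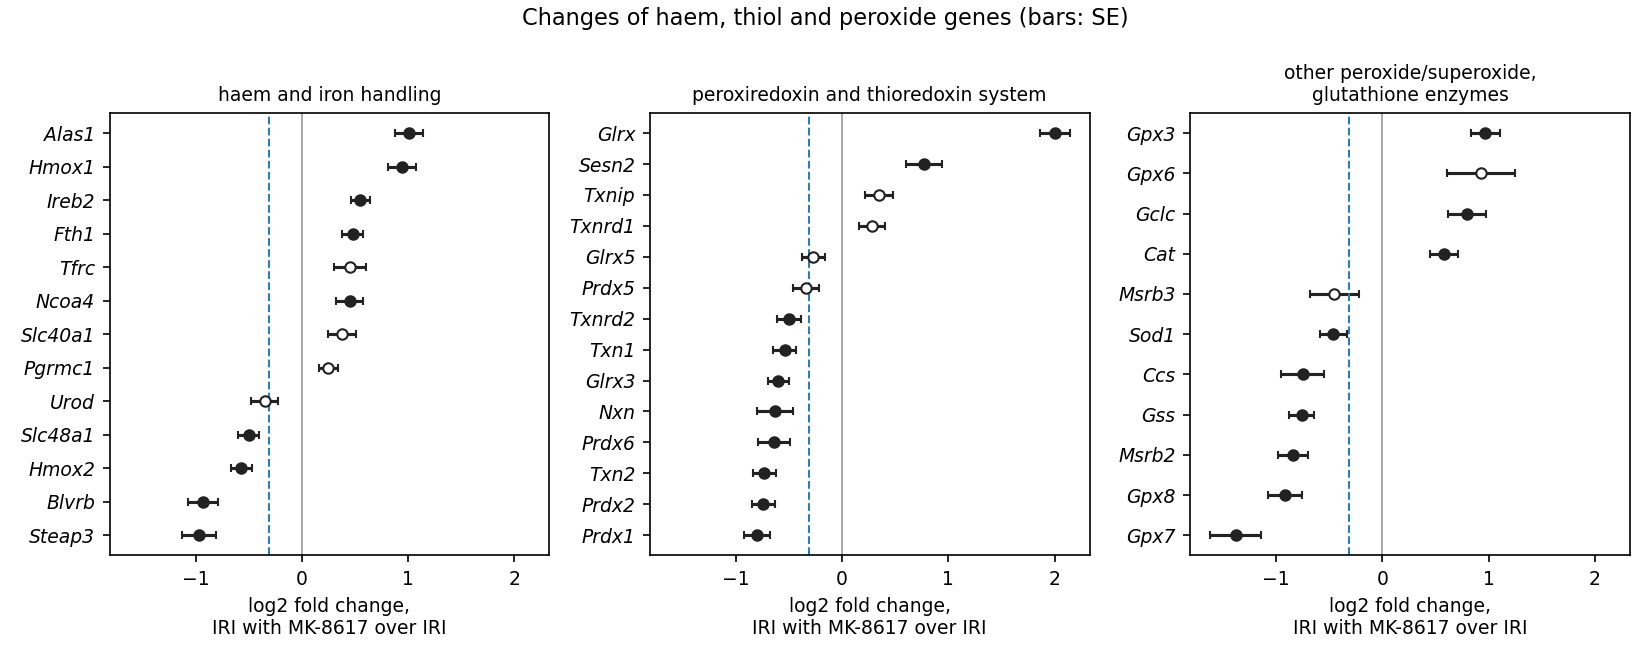
Log2 fold change (IRI with MK-8617 over IRI) of each tested gene in 3 lists, with bars for the SE. Filled points passed an adjusted p of 0.05, open points did not, the grey line is 0 and the dashed blue line is the median of all tested genes (-0.31). Hmox1 lies near the top of its list and Prdx1 and Prdx2 at the bottom of theirs, while Glrx stands apart at 2.

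Of 20 other enzymes against peroxide and superoxide 12 were listed and 11 tested, with 3 higher, 6 lower and 2 not called (median -0.46, against -0.31 over all genes tested). Over all genes tested 74.3% were called, 35.7% higher and 38.7% lower. Gpx3, the secreted glutathione peroxidase made by kidney tubules, had 427283 ± 44971.6 normalised reads with MK-8617 against 219081 ± 34437.3 with IRI alone (0.97 ± 0.14). Cat, catalase of peroxisomes, rose by 0.58 ± 0.13, and Gclc, the catalytic subunit of the rate-limiting step of glutathione synthesis, by 0.8 ± 0.18. The call of Gclc was lost without MK-8617 replicate 3 (0.73, adjusted p = 0.055 by limma). Gss, the next enzyme of glutathione synthesis, fell (-0.76 ± 0.12), as did Gpx7 (-1.38 ± 0.24), Gpx8 (-0.92 ± 0.16) and Msrb2, a methionine sulfoxide reductase (-0.84 ± 0.14).

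Hmox1 and Prdx1 are both known NRF2 targets, and they moved in opposite directions. Nfe2l2, the gene of NRF2, stood at 4558 ± 123.5 normalised reads in the MK-8617 group and 2608 ± 83 in the IRI group (0.81 ± 0.09, adjusted p = 0.000502 by limma). Bach1, the repressor of Hmox1, rose by 0.53 ± 0.11, and Maff, a small MAF partner of these factors, by 1.31 ± 0.19. Bach2 and Trim28, a chromatin corepressor, rose by 0.88 ± 0.24 and 0.3 ± 0.09, calls lost in 9 and 13 of the alternatives. Of 11 regulators 7 were tested, with 5 higher, 0 lower and a median of 0.53, and the number higher was 3 in 6 alternatives. Over all genes tested 35.7% were higher and 38.7% lower. Keap1, the inhibitor of NRF2, is not listed and was not tested.

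Of 29 other NRF2 target genes 20 were listed and tested, with 3 higher, 13 lower and 4 not called, and a median of -0.55, where all genes tested had 35.7% higher, 38.7% lower and a median of -0.31. The 3 that rose were Gclc, Fth1 and Ugdh, a UDP-glucose dehydrogenase gene (0.53 ± 0.11). The glutathione transferase genes Gsta2 (-1.15 ± 0.13), Gsta3 (-0.7 ± 0.1) and Gsta1 (-1.67 ± 0.3) fell; they are close paralogues, and shared reads make the single values uncertain. Ephx1, an epoxide hydrolase gene, had a log2 fold change of -0.99 ± 0.14 and Tkt, transketolase, of -0.51 ± 0.09, and both fell. Nqo1, a quinone reductase often read as the marker of NRF2 activity, stood at 2024 ± 255.1 normalised reads in the MK-8617 group and 2720 ± 375.9 in the IRI group (-0.42 ± 0.13, adjusted p = 0.0418 by limma). This call lies near the threshold and was not followed under the alternatives, and NRF2 activity itself was not tested. Blvrb, Gclc, Txn1, Txnrd1 and Fth1 stand in more than 1 of these lists, so the counts are not independent.

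Markers of cell types that can hold Hmox1 moved with the groups. Of 18 macrophage markers 13 were listed and tested, with 0 higher and 11 lower (7 lower where the mean had to reach 5 CPM, since fewer were tested), and 0 of them were at 0 reads. Over all genes tested 38.7% were lower. Their summed level was 1930 to 2291 normalised reads with MK-8617 and 3998 to 7565 with IRI alone, the opposite direction to Hmox1. Lyz2, a lysozyme gene of myeloid cells, was at 139.5 ± 58.3 normalised reads with MK-8617 against 1207 ± 671.1 with IRI alone. The complement genes C1qc, C1qa and C1qb had log2 fold changes of -1.54, -1.32 and -1.17, Tyrobp, an adaptor of myeloid receptors, of -2.04, and Ctss, cathepsin S, of -0.96. Cd68, Cd163, Mrc1, Ccr2 and Spic are not listed.

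Of 18 proximal tubule markers 9 were listed and tested, with 5 higher and 1 lower, where 35.7% of all genes tested were higher and 38.7% lower. Their sum was 134759 to 137429 normalised reads with MK-8617 and 18625 to 62017 with IRI alone, the same direction as Hmox1. Pck1 and Slc27a2 were its largest terms, at means of 57388 and 33703 with MK-8617, and so the sum mostly followed them. Slc27a2 did not pass the threshold (adjusted p = 0.0532 by limma). Slc22a8, an organic anion transporter gene, was at 5049 ± 682.4 normalised reads with MK-8617 against 1405 ± 241.7 with IRI alone. Cyp2e1 (2.35), Miox (1.18), Pck1 (2.77) and Ass1 (0.8) were also higher and Gatm (-1.23) lower, with the calls of Pck1 and Ass1 lost in 5 and 11 of the alternatives. IRI replicate 3 had the lowest IRI value of each of these 9 markers, and so the low end of the sum. It stood apart for Pck1, with 2065 normalised reads against 15840 and 17966 in IRI replicates 1 and 2. Slc27a2 was likewise at 5545 against 19790 and 21053, and Slc13a1 at 700.7 against 4100 and 4059. Without IRI replicate 3, Pck1 was at 1.76 and passed the threshold, and Ass1 was at 0.5 and did not (adjusted p = 0.0614 by limma). The number higher was 3 without any 1 of the MK-8617 replicates. Of 8 red cell markers only Slc4a1, which intercalated cells of the kidney also express, was listed (37.4 ± 10.4 with MK-8617 against 133.5 ± 61 with IRI alone). The part of these cell markers in the values of Hmox1 and the peroxiredoxins was not tested.

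For each of the 5 genes, the most similar genes over the 6 libraries were taken by Pearson correlation of log2(normalised read count + 1). The search covered 5362 genes that averaged 5 CPM or more, leaving out predicted genes (symbols with Gm and a number, or with Rik). The libraries form 2 separate groups, so this likeness is mostly the group difference and is given as a description. Hmox1 was closest to Hltf, Hps3, Abcc5, Arid3b and Anks6 (r of 0.9952 to 0.9985). Prdx1 was close to Anxa2, Acot7, Bco1 and Tmsb10 (0.9972 to 0.9988). Prdx2 was closest to Rplp1, Mdp1, Rpl12, Phgdh and Rpl14 (0.9972 to 0.999), of which 3 are ribosomal protein genes with many processed pseudogenes. Prdx6 was closest to Shmt1, Baz1b, Tyms, Tmem14c and Neurl1b (0.9933 to 0.9981). Prdx5 was closest to Kdelr1, Abhd17a, Lurap1l, Frg1 and Nfkbil1 (0.9878 to 0.9899).

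**Figure D4:**
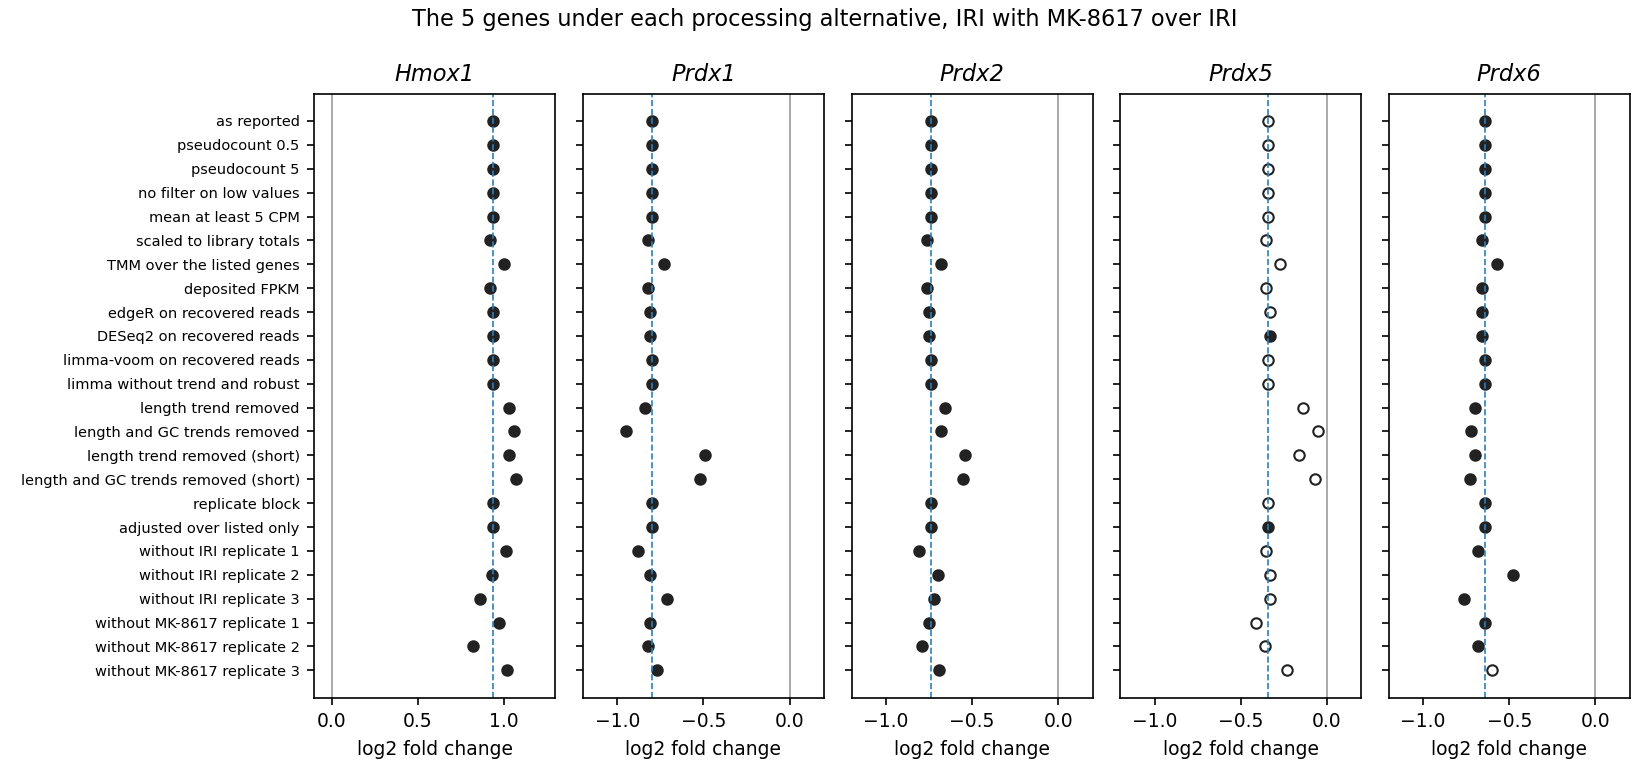
Log2 fold change (IRI with MK-8617 over IRI) of each gene as reported and under the 23 alternatives, where filled points passed an adjusted p of 0.05 and open points did not. The dashed line is the reported value and the grey line is 0; "short" marks the shortest principal transcript. Hmox1 stays between 0.82 and 1.07, Prdx1 between -0.95 and -0.49, and Prdx5 reaches -0.05.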

How the data were processed

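The authors' deposited signal values are gene read counts divided by 1 size factor per library (0.937 to 1.0979). Dividing by the value of 1 read gave whole reads for 100% of values (tolerance 0.001), which equalled the deposited raw count of IRI replicate 3 in 7340 of 7340 genes. The deposited table also gives the authors' FPKM, group means, log2 fold change, p-value and adjusted p-value per gene. Per the submitters' processing notes, the tools include DESeq2 1.20.0, featureCounts 1.5.0-p3 and HISAT2 2.0.5; the notes name a human build, but the identifiers are mouse. The library kit was NEBNext Ultra RNA, per the labels' protocols.

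The test was limma 3.58.1 with trend and robust options in R 4.3.3, fitted to log2(value + 1) for all 6961 genes kept by filterByExpr of edgeR 4.0.16; 379 were removed. P-values were adjusted over the 18811 genes that the deposited adjusted p-values imply, since unlisted genes had been tested. Fold changes are on the scale of log2(value + 1) and do not depend on that number of genes. A total of 3 reads per library, the floor for a count of 0, equal 0.154 to 0.178 CPM and cover counting error only. The fit was tested on simulated data. Another 13 columns are empty and were not used. Sampling noise was exceeded between replicates (mean chi-square of 16.87 to 46.59 per gene). Gene positions are from GENCODE M21. The genes and the 9 lists were chosen with earlier results of these data known, and no list was tested as a set. Named genes were the 5 genes, called genes of a list (all where 8 or fewer, else the 6 smallest adjusted p) and the 5 most similar genes per gene, of which 1 is not reported here. Beyond this rule, Slc48a1, Fth1, Ncoa4, Slc40a1, Sesn2, Txnrd1, Txnip, Cat, Ugdh and Nqo1 were named after their values were seen. So were Umod, Slc13a1 and Slc27a2. Alternatives were DESeq2 1.42.0, edgeR and limma-voom on recovered reads, other scalings, pseudocounts and filters, length and GC trends (mgcv), FPKM, a replicate block and leaving out each library.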

Additional observations from a re-analysis of the deposited data

How the results depend on the processing

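Hmox1, Prdx1 and Prdx2 passed the threshold with the same direction in 23 of 23 alternatives, Hmox1 at 0.82 to 1.07, Prdx1 at -0.95 to -0.49 and Prdx2 at -0.81 to -0.54. Leaving out 1 library gave 0.82 to 1.02 for Hmox1 and -0.88 to -0.71 for Prdx1. Prdx6 lost its call without MK-8617 replicate 3 alone. Prdx5 gained one with DESeq2 and when p-values were adjusted over the listed genes only (adjusted p = 0.0244). The count of changed genes, 5173 of 6961 tested, was 3971 to 6767 under the other settings. The 3971 came with the 5 CPM filter, which left 5633 genes tested, and the 6767 with adjustment over the listed genes only. The count was 3412 to 5144 when 1 library was left out, the lowest without MK-8617 replicate 1. Removing the length trend shifted the median of all tested genes to -0.14, from -0.31; the settings using the shortest principal transcript were chosen after seeing the data. Among the list counts, adjustment over the listed genes only raised the number higher most in 4 lists, and smaller rises in other lists are not given here. It became 8 for haem and iron handling, 4 in the peroxiredoxin and thioredoxin list, 5 among NRF2 targets and 8 among proximal tubule markers. Same-numbered samples are not known to be paired: their deviations correlated at 0.021, 0.116 and 0.115, and every library correlated best with its own number. With a replicate block 5257 genes changed, and Hmox1 (adjusted p = 0.00279) and Prdx1 (adjusted p = 0.00577) kept their calls. Groups of 3 limit every single-gene exact test to p = 0.1.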
